A study of Sus scrofa with 9 samples.

Results

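The insulin-like growth factor (IGF) family of ligands, receptors and binding proteins was followed in the longissimus dorsi, a back muscle, of pigs under 3 levels of dietary lysine. The genes were chosen by name: of a list of 10 genes, the 7 with a probe set that carries only their symbol in the platform annotation were measured. The array had 27558 probe sets, of which 13323 carried 1 symbol, for 12361 distinct genes. The 7 measured genes were the ligand IGF1, the receptors IGF1R and IGF2R and the binding proteins IGFBP3, IGFBP4, IGFBP6 and IGFBP7, each with 1 probe set. IGF2, IGFBP2 and IGFBP5 were not analysed here. The samples came from 9 male finishing pigs of about 95 kg at the start, 3 each on diets deficient, adequate or in excess of lysine over 5 weeks, and each pig had 1 array. Muscle was taken at slaughter between the 10th and 12th ribs, and breed and age were not stated. Values are the authors' processed array signals on a log scale, taken as log2 from their range, and every fold below rests on that base. The signal of a probe set depends on its probes as well as on its transcript, so the IGF genes are compared between pigs within a gene and are not ordered against each other.

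IGF1 and IGF2 are small secreted hormones related to insulin, and the growth hormone axis drives IGF1 in the liver and, in part, in muscle itself. IGF1R is the tyrosine kinase receptor through which both ligands signal to protein synthesis and growth, while IGF2R clears IGF2 from the cell surface and carries mannose 6-phosphate tagged enzymes to lysosomes. The binding proteins hold the ligands in blood and tissue, prolong their life, and release them when proteases cut the binding protein. Muscle fibres, fibroblasts, endothelium and satellite cells can all contribute to the family's transcripts in whole muscle.

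The labelled tissue was checked against its markers. The 4 measured fibre genes, ACTA1, MYH1, MYH7 and MYLPF, had means of 12.56 to 13.17, brighter than at least 99.6% of probe sets, and the 4 measured liver genes, ALB, APOA1, APOA2 and SERPINA1, had means of 4.37 to 4.62, below the median of all values of 5.06. ALB, the albumin gene, reached 5.81 in 1 excess pig, above that median, and at most 4.58 in the deficient and adequate pigs. These ranks across probe sets are a coarse check, since probes differ in brightness. One array, that of excess pig 11, was unlike the rest: its values had an SD of 1.82 against 1.93 to 1.99 on the other 8 arrays. Its probe sets in the ninth of 10 level bins, where IGF1 lies, had a median deviation of -0.53 (log2) from the mean of excess pigs 9 and 10. Excess minus adequate is therefore given with and without this pig for each of the 7 genes.

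No IGF family gene differed between diets beyond the spread between pigs, as pooled over the 3 diets. The 21 log2 differences, 7 genes in 3 comparisons, ran from -0.45 to 0.23, and 11 of them were at most 0.1 in size. All 21 of the 95% intervals contained 0. The intervals of 13 lay within 1.5-fold in either direction, those of 18 within 2-fold and all 21 within 2.5-fold. With 3 pigs per diet, true differences of any size within these intervals, in either direction, remain compatible with the values. The spread behind each interval is pooled over the 3 diets, so the excess pigs also set the width of deficient minus adequate. On the 6 arrays compared alone, the SE of that difference was 0.18 rather than 0.31 for IGF2R. It was 0.06 rather than 0.13 for IGFBP4, and 0.21 either way for IGF1. In whole muscle, fewer cells that express a gene and less RNA per cell cannot be told apart.

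**Figure D1:**
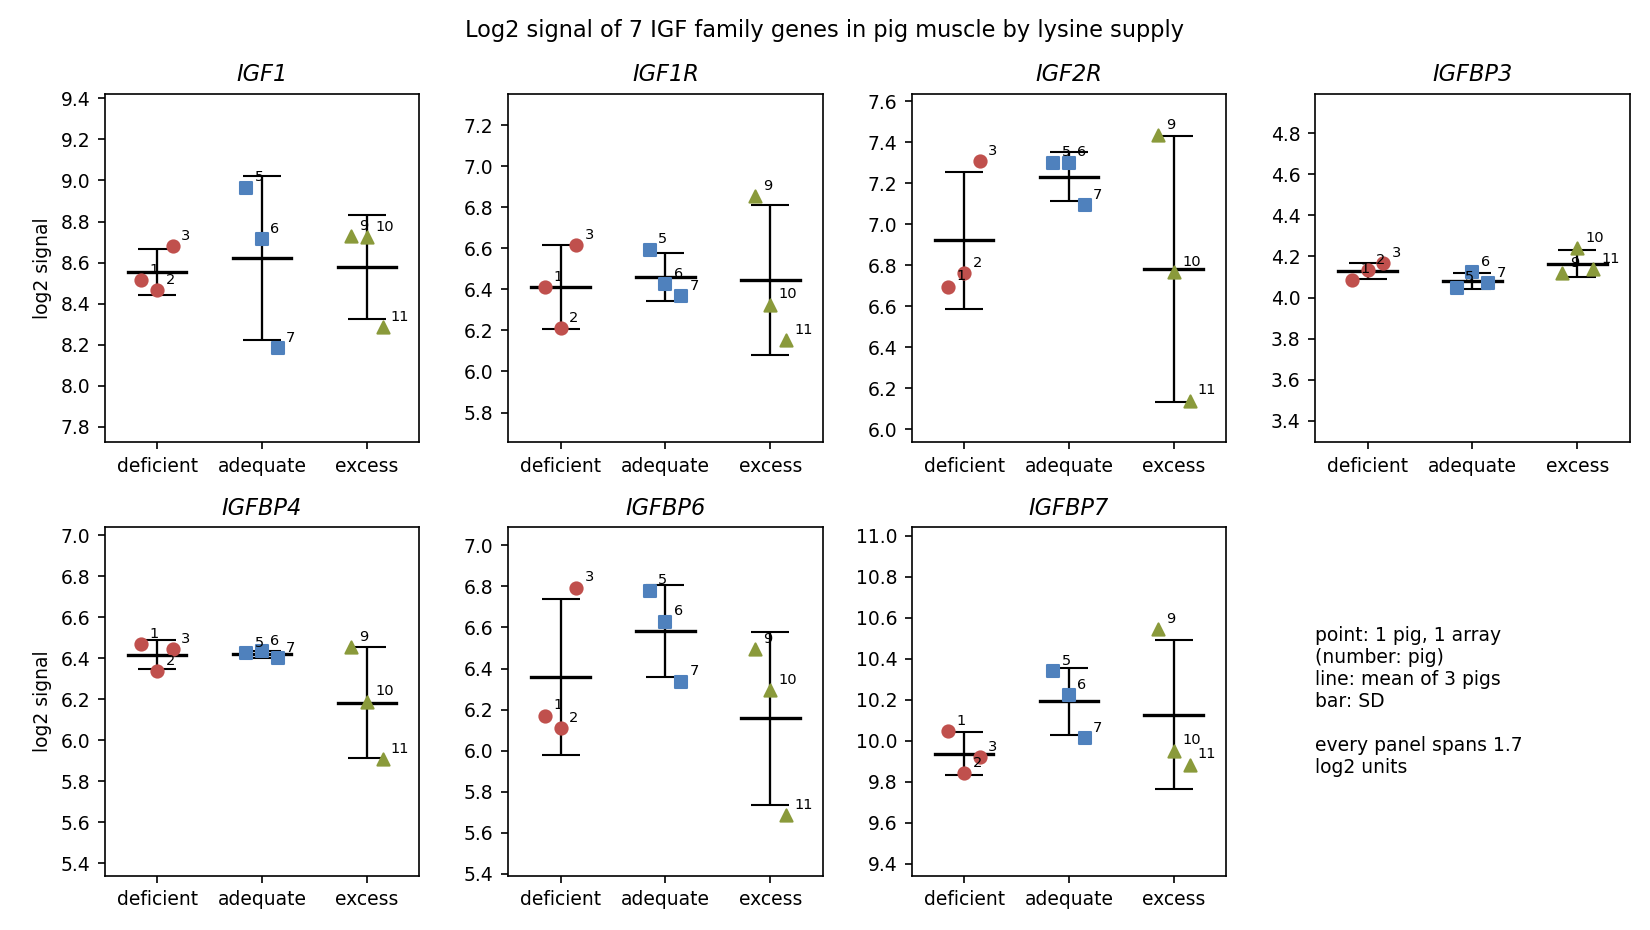
Log2 signal (y axis) of the 7 measured IGF family genes in each of 9 pigs by diet (x axis), with the mean and SD of 3 pigs; numbers name the pigs. The groups overlap in every panel, and excess pigs 9 and 11 lie far apart for IGF2R, at 7.44 and 6.14.

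IGF1, the ligand, had almost the same mean in all diets. Its log2 signals were 8.52, 8.47 and 8.68 in deficient pigs 1, 2 and 3, 8.96, 8.71 and 8.18 in adequate pigs 5, 6 and 7, and 8.73, 8.72 and 8.29 in excess pigs 9, 10 and 11. The adequate group held both the highest and the lowest pig of all 9, and the other groups lay inside its range. Means were 8.55 ± 0.11, 8.62 ± 0.40 and 8.58 ± 0.25 (SD, n = 3 pigs each) in deficient, adequate and excess pigs. Adequate, excess and deficient therefore followed each other in steps of 0.04 and 0.03, below the SD of any group. Deficient minus adequate was -0.07 ± 0.21 (SE), with a 95% interval from -0.55 to 0.42, or 0.68-fold to 1.34-fold. Excess minus adequate was -0.04 ± 0.21, and 0.11 without excess pig 11. Adequate pig 7 had the lowest IGF1 signal, and without it deficient minus adequate was -0.29 and excess minus adequate -0.26, more than 1.5 times the values with all pigs. Without adequate pig 5 these differences were 0.11 and 0.13.

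IGF1R, the signalling receptor, differed by no more than 0.05 between any 2 diet means. Its log2 signals were 6.41, 6.21 and 6.62 in deficient pigs 1 to 3, 6.59, 6.42 and 6.37 in adequate pigs 5 to 7 and 6.86, 6.33 and 6.15 in excess pigs 9 to 11. The excess pigs held both the highest and the lowest value. Group means were 6.41 ± 0.20, 6.46 ± 0.12 and 6.45 ± 0.37 (SD, n = 3 pigs each) for deficient, adequate and excess, and no neighbours in that order differed beyond their spread. The 95% interval of deficient minus adequate ran from 0.71-fold to 1.31-fold, that of excess minus adequate from 0.73-fold to 1.34-fold. Single pigs turned these small differences: excess minus adequate, -0.016 with all pigs, was -0.22 without excess pig 9 and 0.13 without excess pig 11. Deficient minus adequate, -0.05 with all pigs, was -0.15 without deficient pig 3 and 0.05 without deficient pig 2.

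IGF2R, the receptor that removes IGF2, had the widest range of the family and the largest difference between diet means. Its log2 signals were 6.70, 6.76 and 7.31 in deficient pigs 1 to 3, 7.30, 7.30 and 7.09 in adequate pigs 5 to 7 and 7.44, 6.77 and 6.14 in excess pigs 9 to 11. The 3 adequate pigs lay close together and high, while deficient pig 3 and excess pig 9 were above all adequate pigs, so the groups overlapped. Means were 6.92 ± 0.34, 7.23 ± 0.12 and 6.78 ± 0.65 (SD, n = 3 pigs each) in deficient, adequate and excess pigs. Deficient minus adequate was -0.31 ± 0.31 (SE) and excess minus adequate -0.45 ± 0.31, which is 1.24-fold and 1.37-fold lower (limma adjusted p = 1 and 0.757). The second value rested on single pigs: it was -0.13 without excess pig 11 and -0.78 without excess pig 9, and it reversed to 0.023 with the SD of the arrays in the fit as a covariate. Deficient minus excess, 0.14 ± 0.31, reversed in 4 of 18 alternatives and was -0.18 without excess pig 11. Deficient minus adequate was -0.50 without deficient pig 3 and -0.20 without deficient pig 1, and kept its direction in all 18 alternatives.

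IGFBP3, the main carrier of IGFs in blood, gave a low and nearly flat signal. Values were 4.09, 4.13 and 4.17 in deficient pigs 1 to 3, 4.05, 4.12 and 4.07 in adequate pigs 5 to 7 and 4.12, 4.24 and 4.14 in excess pigs 9 to 11. The 9 pigs spanned 0.19 in all, near the lower end of the scale of values, and no background level was tested. Excess minus adequate was 0.09 ± 0.06 (SE), and 0.10 without excess pig 11, and deficient minus adequate 0.05 ± 0.06, and the groups overlapped.

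IGFBP4, which binds IGFs and is cut by the protease PAPPA, was alike in deficient and adequate pigs and lower on average in excess pigs. Its log2 signals were 6.47, 6.34 and 6.44 in deficient pigs 1 to 3, 6.42, 6.43 and 6.40 in adequate pigs 5 to 7 and 6.45, 6.19 and 5.91 in excess pigs 9 to 11. Excess pigs 10 and 11 lay below all other pigs and excess pig 9 above the adequate pigs. Means were 6.42 ± 0.07, 6.42 ± 0.017 and 6.18 ± 0.27 (SD, n = 3 pigs each) for deficient, adequate and excess. The deficient mean differed from the adequate mean by less than 0.01, with a 95% interval from 0.81-fold to 1.22-fold. Excess minus adequate was -0.24 ± 0.13 (SE) and had the smallest unadjusted p of any family gene in limma, 0.101 (adjusted p = 0.757). It was -0.10 without excess pig 11 and -0.37 without excess pig 9. In the latter fit the unadjusted limma p was 0.0068 (adjusted p = 0.264, the smallest over the alternatives). There 16.8% of all probe sets had an unadjusted p under 0.05. Deficient minus excess was 0.23 ± 0.13, and 0.10 without excess pig 11.

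IGFBP6, a binding protein that prefers IGF2, had its highest mean in adequate and its lowest in excess pigs. Its log2 signals were 6.17, 6.11 and 6.79 in deficient pigs 1 to 3, 6.78, 6.63 and 6.34 in adequate pigs 5 to 7 and 6.49, 6.29 and 5.69 in excess pigs 9 to 11. Deficient pig 3 was the highest and excess pig 11 the lowest, and adequate pig 7 lay below excess pig 9. Means were 6.36 ± 0.38, 6.58 ± 0.23 and 6.16 ± 0.42 (SD, n = 3 pigs each) for deficient, adequate and excess, so that each step in the order was smaller than the larger SD of the 2 groups. Deficient minus adequate was -0.22 ± 0.26 (SE) and excess minus adequate -0.42 ± 0.26, and both were negative in all 18 alternatives. Without excess pig 11 excess minus adequate was -0.19. Without deficient pig 3 deficient minus adequate was -0.44, and it was -0.10 without deficient pig 2.

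IGFBP7, a secreted protein of vessels and matrix that binds IGFs weakly, was 10.05, 9.84 and 9.92 in deficient pigs 1 to 3, 10.34, 10.22 and 10.02 in adequate pigs 5 to 7 and 10.54, 9.95 and 9.88 in excess pigs 9 to 11. Deficient pig 1 lay above adequate pig 7 by a small margin, and the other deficient pigs lay below all adequate pigs. Means were 9.94 ± 0.10, 10.19 ± 0.16 and 10.13 ± 0.36 (SD, n = 3 pigs each) in deficient, adequate and excess pigs. Deficient minus adequate, -0.25 ± 0.18 (SE), did not pass (limma unadjusted p = 0.193, adjusted p = 1). It ran from -0.34 to -0.18 when 1 pig was left out. Without excess pig 9, which is outside this comparison, its limma unadjusted p was 0.0414. In that fit 2.08% of all probe sets had an unadjusted p under 0.05. Excess minus adequate was -0.07 ± 0.18, and 0.06 without excess pig 11.

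Counts over the family follow from these values. Between deficient and adequate pigs, limma put 0 of the 7 genes past an adjusted p of 0.05, as it did 0% of all probe sets. At an unadjusted p under 0.05 there were also 0 of 7, where 1.85% of all probe sets passed, and 0 of 7 had groups without overlap, where 6.84% did. Means were lower in deficient pigs for 6 genes and higher for IGFBP3, with a median of -0.07, and 47% of all probe sets were lower with a median of 0.0071. Between excess and adequate pigs the counts were again 0 of 7 at the adjusted threshold in limma, where 0% of all probe sets passed. They were 0 of 7 at an unadjusted p under 0.05, against 3.56%, and 0 of 7 without overlap, against 7.03%. Again 6 genes were lower and IGFBP3 higher, with a median of -0.07, where 49.8% of all probe sets were lower. Without excess pig 11 the split was 3 lower and 4 higher, with a median of 0.06. The 2 comparisons share the adequate pigs, so their like signs are not independent of each other. Between deficient and excess pigs it was 0 of 7 at the adjusted threshold in limma, where 0% of probe sets passed, 0 of 7 at an unadjusted p under 0.05, against 4.08%, and 0 of 7 without overlap, against 6.47%. There 3 genes were higher in deficient pigs and 4 lower, where 50% of all probe sets were lower. With 7 genes and these background shares, a count of 0 says nothing about the family in particular. An F test over the 3 diets in limma gave the 7 genes adjusted p-values of 0.933 to 0.989. It put 0 of 7 past an unadjusted p of 0.05, against 2.54% of all probe sets, and 0% of them passed after adjustment.

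**Figure D2:**
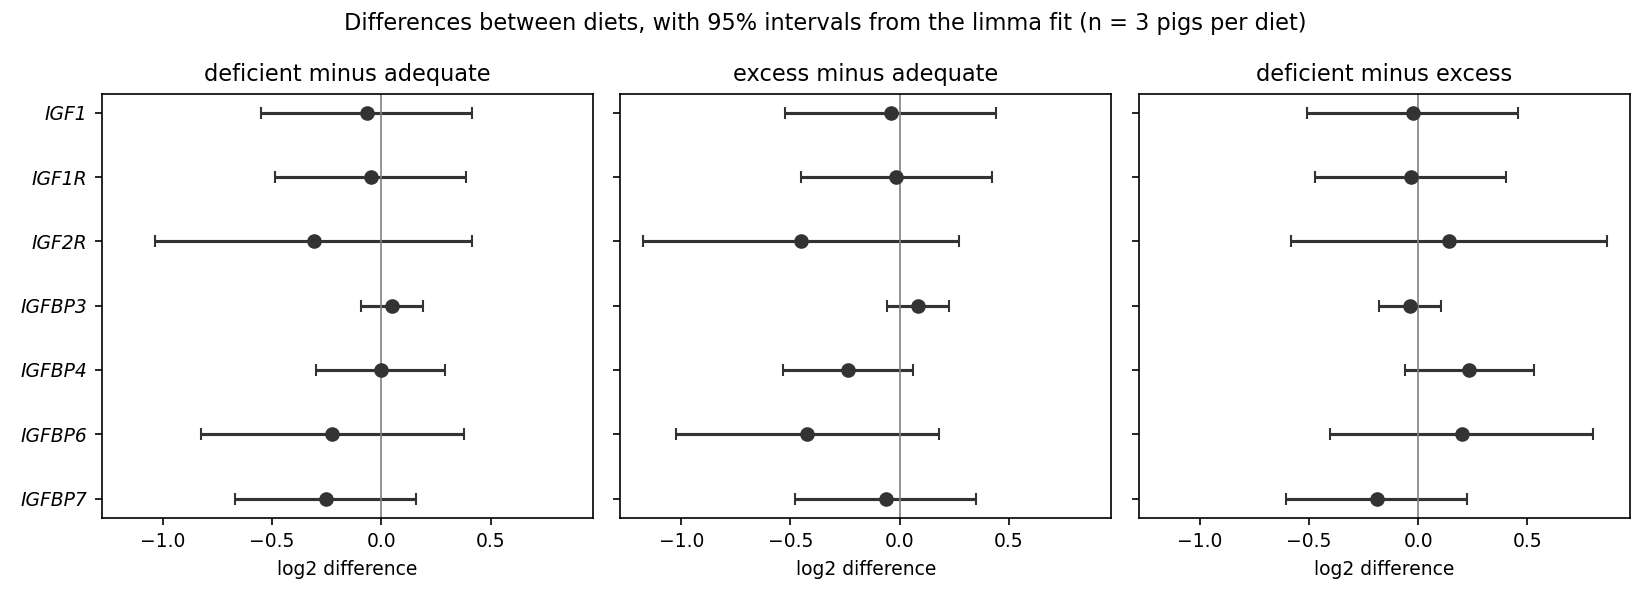
Log2 differences between diet means (x axis) for each gene (y axis) in the 3 comparisons, with 95% intervals from the limma fit to all 9 arrays. All 21 intervals cross 0, and the narrowest are those of IGFBP3 and the widest those of IGF2R.

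The spread within a diet was widest in the excess group for 6 of the 7 genes, IGF1 being the exception. Of all probe sets 62.2% had their widest spread there, so this holds for the arrays at large. Excess pig 11 was the lowest of the 9 pigs for 4 genes, IGF1R, IGF2R, IGFBP4 and IGFBP6. Excess pig 9 was the highest for 3 genes, IGF1R, IGF2R and IGFBP7. Relative to the other 2 excess pigs, pig 11 deviated by -0.96 for IGF2R and -0.71 for IGFBP6, where probe sets of the same level bin had a median deviation of -0.41. For IGF1R the deviation was -0.44 and thus near that median, for IGF1 it was -0.44 against -0.53, and for IGFBP7 it was -0.36 against -0.30. IGFBP4 deviated by -0.41 against a median of -0.18 in its bin, and IGFBP3 by -0.04 against 0.14. The part of this array-wide deviation in the excess values was not tested further than by leaving the pig out.

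**Figure D3:**
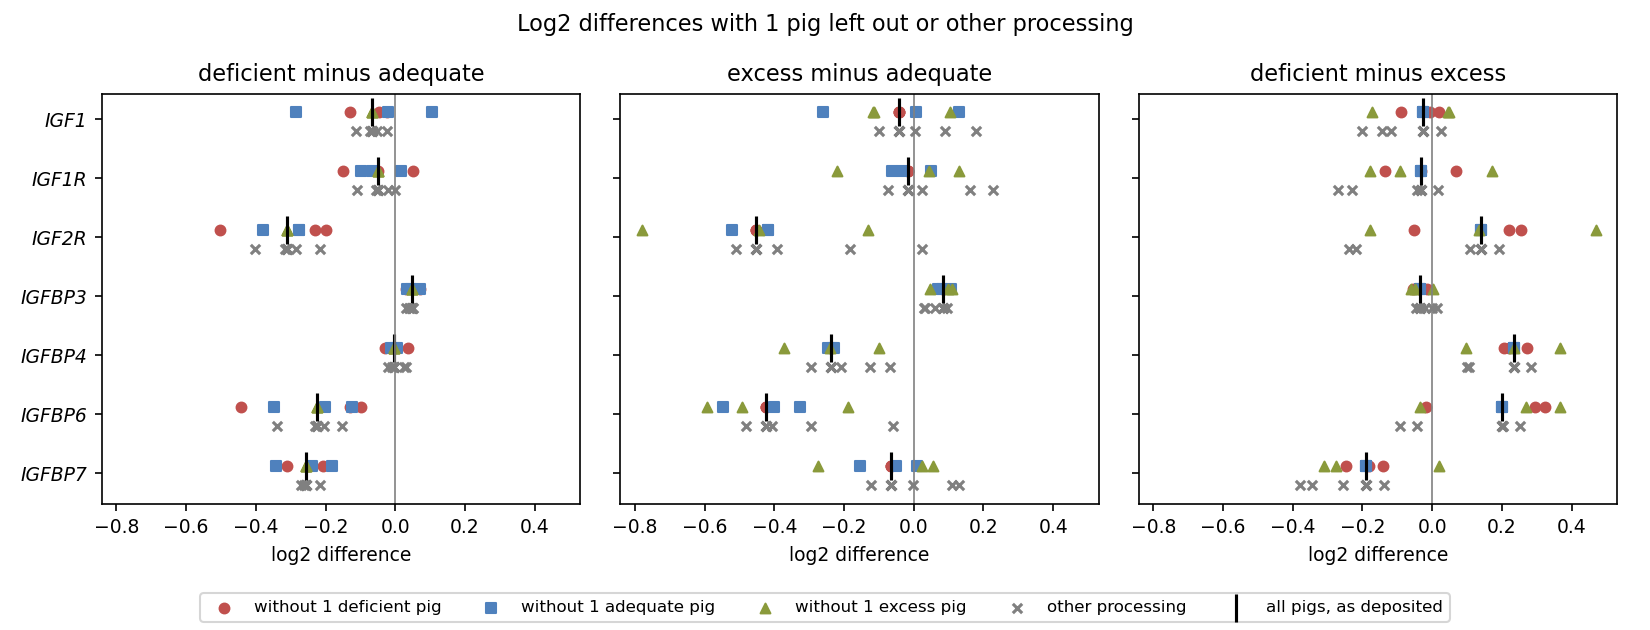
Log2 differences (x axis) for each gene (y axis) with all pigs (black bar), with 1 pig left out (coloured points by the diet of that pig) and under other processing (grey crosses). For IGF2R the excess minus adequate values without 1 pig run from -0.78 to -0.13, and those of IGFBP3 stay close to 0 in all panels.

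Correlations between genes of the family were mostly positive across pigs. Over the 9 arrays, all 15 pairs among the 6 genes other than IGFBP3 had a positive Pearson correlation, from 0.40 to 0.93 with a median of 0.67. Without excess pig 11 the number was 14 of 15 with a median of 0.52. Such values were common on these arrays: over 7323 other named probe sets at or above the median level, the median r was 0.62 with IGF2R and 0.45 with IGF1R, or 0.35 and 0.25 without excess pig 11. IGFBP3 correlated negatively in 5 of its 6 pairs, between -0.42 and 0.09. Of all 21 pairs 1 passed an adjusted p of 0.05 on Pearson's r and 3 on Spearman's rho, by exact permutation tests over the 9 arrays.

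IGF2R and IGFBP6 formed the pair that passed on both. Their r was 0.93 (two-sided exact permutation p = 0.000733, adjusted over 21 pairs p = 0.0154) and their rho 0.87 (exact permutation p = 0.0045, adjusted p = 0.0425). Without the pigs farthest from the median of IGF2R, excess pig 11 and deficient pig 1, r was 0.81. It was 0.85 without excess pig 11 alone, and 0.91 for deviations from the diet means. A diet holds 3 pigs, too few for a correlation of its own. IGF1R and IGF2R followed with an r of 0.83 and a rho of 0.88 (exact permutation adjusted p = 0.0526 and 0.0425). IGF1R and IGFBP6 had an r of 0.74 and a rho of 0.85 (exact permutation adjusted p = 0.0824 and 0.0425). Of the 7323 other probe sets, 1.63% had an r with IGF2R as high as that of IGFBP6, and 3.97% had an r with IGF1R as high as that of IGF2R. IGF1R and IGFBP7 had an r of 0.81, which 5.05% reached with IGF1R.

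**Figure D4:**
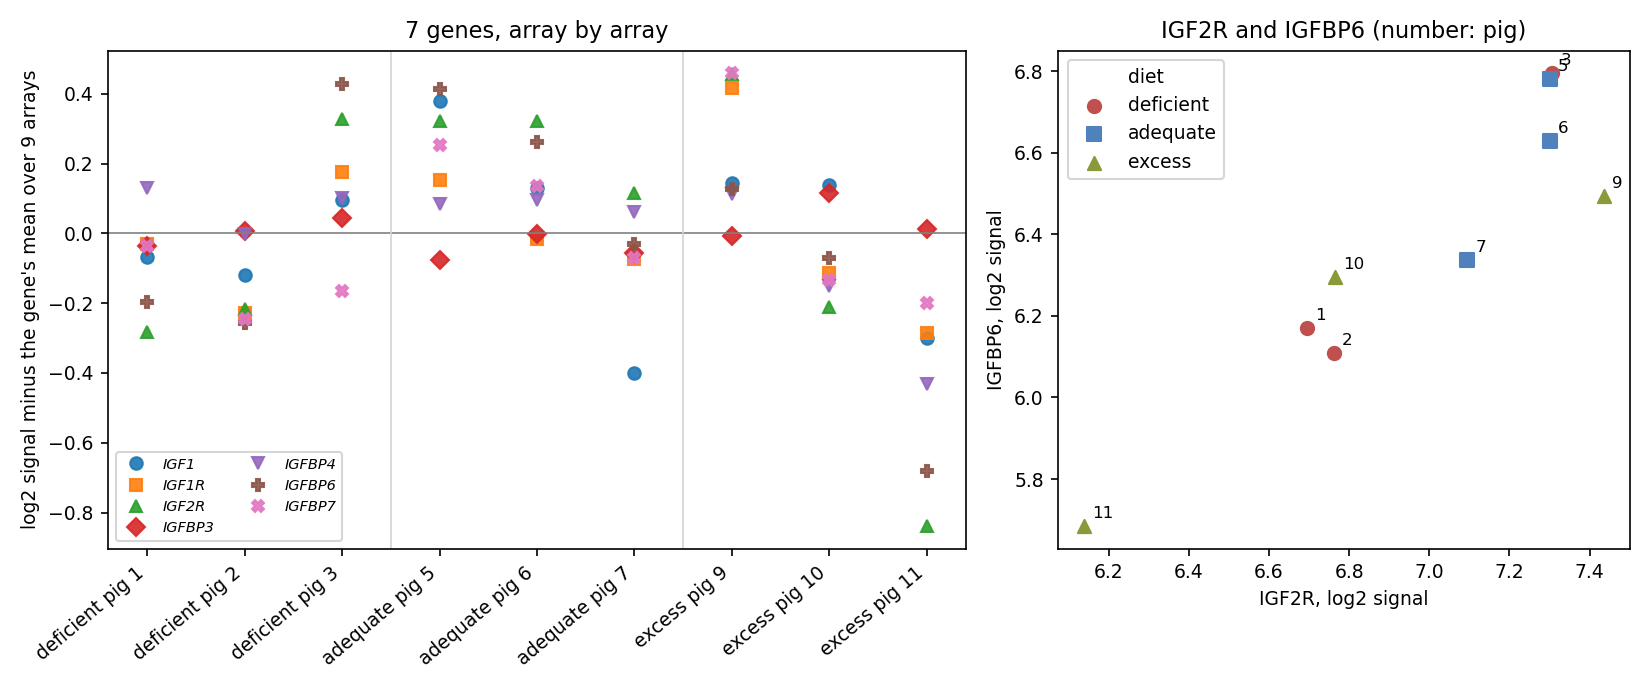
Left, log2 signal minus the gene's mean over 9 arrays (y axis) for the 7 genes on each array (x axis); right, IGFBP6 (y axis) against IGF2R (x axis) in the 9 pigs by diet. Excess pig 11 lies lowest and excess pig 9 high for most genes. IGF2R and IGFBP6 rise together over the pigs, with an r of 0.93 and a rho of 0.87, though their order of the pigs differs in part.

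Genes whose pattern over the 9 arrays was most like a ligand or receptor were named by the highest Pearson correlation among 7324 named probe sets at or above the median level. For IGF1 these were FBXO6, CXCL14 and MORF4L1, each with an r of 0.92 to 0.93, and 0.91 without excess pig 11. For IGF1R they were PLXND1, EPHB4 and ASAP2 at 0.97 to 0.98, and 0.96 to 0.97 without that pig. PLXND1 and EPHB4 encode receptors of vessel cells. For IGF2R they were DEF8, RELL1 and TBC1D10B at 0.98 to 0.99, and 0.96 to 0.99 without excess pig 11. These correlations were picked as the highest of all candidates on the same 9 arrays and are given as a description.

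Among markers of other cell types, 11 of 11 measured fibroblast and matrix genes were lower in both deficient and excess than in adequate pigs. Their medians were -0.45 and -0.53, and 47% and 49.8% of all probe sets were lower. None of the 11 passed an adjusted p of 0.05 in limma. At an unadjusted p under 0.05 there were 2 of 11 in each comparison, against 1.85% and 3.56% of all probe sets. The mean log2 level of the 11 genes was 8.89 to 9.44 in deficient, 9.50 to 9.91 in adequate and 8.69 to 9.35 in excess pigs. None of these fibroblast and matrix genes was near the bottom of the scale. Means of 6 of the 7 family genes, all but IGFBP3, were also below adequate in both groups. Without excess pig 11, 3 of 7 were lower and 4 higher in excess pigs. Means of IGFBP6, IGFBP4 and IGF2R were lowest in excess pigs, with differences from adequate of -0.19, -0.10 and -0.13 without excess pig 11. The part of fibroblasts in these values was not tested. All marker values include excess pig 11 and were not computed without it. The array of that pig had median deviations of -0.41, -0.53 and -0.30 in level bins 8 to 10, where the fibroblast and matrix genes lie. The part of this deviation in the excess medians of the markers was not tested. The 7 measured endothelial markers had mean levels of 6.63 to 6.89 in deficient, 6.57 to 6.87 in adequate and 6.39 to 7.03 in excess pigs, with 4 of 7 higher in deficient than in adequate pigs and a median of 0.04. In excess pigs 3 of 7 were higher, with a median of -0.06. The 2 measured satellite cell markers, MYOD1 and MYOG, differed from adequate pigs by 0.40 and 0.06 with deficient and by 0.11 and -0.43 with excess lysine. Of 5 measured macrophage and leukocyte markers 4 were lower in deficient and 3 in excess than in adequate pigs, with medians of -0.10 and -0.12. The 6 measured smooth muscle and pericyte markers were all lower in both deficient and excess than in adequate pigs, with medians of -0.30 and -0.40. Their mean levels were 7.93 to 8.09 in deficient, 8.15 to 8.56 in adequate and 7.73 to 8.30 in excess pigs, and CNN1 had an unadjusted limma p of 0.0327 in the excess comparison (adjusted p = 0.757). Of 6 measured adipocyte markers 5 were higher in deficient than in adequate pigs, with a median of 0.17. In excess pigs 5 were lower than in adequate pigs, with a median of -0.33. At an unadjusted limma p under 0.05 there were 1 and 2 of 6, against 1.85% and 3.56% of all probe sets. CFD, CIDEC and PLIN1 were higher in deficient than in excess pigs (limma unadjusted p = 0.00034, 0.00054 and 0.0033, adjusted p = 0.872). These 3 of 6 did not overlap, where 6.47% of all probe sets did not.

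The rest of the pathway was read from 5 lists of genes around the family, of which 50 of 69 genes were measured. None passed an adjusted p of 0.05 in limma in any of the 3 comparisons. At an unadjusted p under 0.05 there were 3 of 50 between deficient and adequate pigs, 2 of 50 between excess and adequate pigs and 2 of 50 between deficient and excess pigs, against 1.85%, 3.56% and 4.08% of all probe sets. These counts are too small to set the lists apart from the background.

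Among 10 other binding proteins and cofactors, 8 were higher and 2 lower in deficient than in adequate pigs, with a median of 0.01. IGFALS, the acid-labile subunit that joins IGFBP3 and IGF1 in blood, was 5.27, 5.27 and 5.38 in deficient pigs, 5.26, 5.01 and 5.29 in adequate pigs and 5.43, 5.38 and 5.25 in excess pigs. Its differences from adequate pigs, 0.12 ± 0.09 and 0.16 ± 0.09 (SE), did not pass. CYR61, a matrix protein with an IGF-binding domain that is now named CCN1, was 7.39, 6.78 and 7.85 in deficient pigs and 6.78, 5.70 and 6.11 in excess pigs. Deficient pig 2 lay just below excess pig 9, so the groups overlapped. Deficient minus excess was 1.14 ± 0.45 (limma unadjusted p = 0.0368, adjusted p = 0.872).

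Proteases that free IGFs, and their inhibitors, split into 6 higher and 7 lower of 13 measured in deficient against adequate pigs. STC1, stanniocalcin 1, which inhibits PAPPA, was 5.54, 5.26 and 5.87 in deficient pigs and 5.25, 5.11 and 4.94 in adequate pigs. All 3 deficient pigs lay above the adequate pigs, though pig 2 by a narrow margin, and excess pigs gave 5.27, 5.08 and 5.25. The difference was 0.46 ± 0.16 (limma unadjusted p = 0.0218, adjusted p = 1), and 0.30 without deficient pig 3. MMP2, a gelatinase made by fibroblasts among other cells, was 8.47, 8.26 and 8.65 in deficient, 9.31, 8.93 and 8.67 in adequate and 8.70, 8.23 and 8.10 in excess pigs. It lay below the adequate group by 0.51 in deficient pigs, without overlap, and by 0.63 in excess pigs, with overlap (log2 differences -0.51 ± 0.21 and -0.63 ± 0.21, limma unadjusted p = 0.0421 and 0.0183, adjusted p = 1 and 0.757). The fibroblast markers given above lay lower in the same pigs. PAPPA, which cuts IGFBP4, differed from adequate pigs by -0.04 ± 0.12 with deficient and -0.20 ± 0.12 with excess lysine, and STC2 by 0.03 ± 0.07 and 0.02 ± 0.07.

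Behind the receptors, 11 of 17 measured signalling genes were lower in deficient than in adequate pigs, with a median of -0.06. In excess pigs 11 of 17 were lower, with a median of -0.19 that includes excess pig 11 and was not computed without that pig. Of all probe sets 47% and 49.8% were lower. AKT2, the kinase of insulin signalling to glucose uptake, was 10.23, 10.30 and 10.33 in adequate and 10.21, 9.97 and 9.95 in excess pigs, which did not overlap. Its difference was -0.24 ± 0.08 (SE, limma unadjusted p = 0.0220, adjusted p = 0.757). GRB10, an adaptor that dampens insulin and IGF1 receptors, was 9.25, 9.03 and 9.23 in deficient, 8.96, 8.58 and 8.98 in adequate and 8.97, 8.34 and 7.19 in excess pigs. The deficient pigs lay above all others, and deficient minus excess was 1.00 ± 0.39 (limma unadjusted p = 0.0349, adjusted p = 0.872), or 0.52 without excess pig 11. IRS1, the docking protein of both receptors, differed from adequate pigs by -0.26 ± 0.25 with deficient and 0.28 ± 0.25 with excess lysine. Single pigs carried these values: the first was -0.02 without deficient pig 1 and -0.49 without deficient pig 3, and the second was 0.12 without adequate pig 7. Deficient minus excess of IRS1 was -0.54 ± 0.25 (limma unadjusted p = 0.0602, adjusted p = 0.872), and -0.30 without deficient pig 1. INSR, the insulin receptor, differed by 0.23 ± 0.24 and -0.26 ± 0.24 on its brightest probe set. The second value was -0.03 without excess pig 11 and -0.55 without excess pig 9. On the other 2 probe sets of INSR the differences were 0.02 and 0.08 with deficient and -0.27 and -0.12 with excess lysine.

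In the growth hormone axis 3 of 7 measured genes were higher and 4 lower in deficient than in adequate pigs, with a median of -0.07. GHR, the growth hormone receptor, kept close to one level: 10.42, 10.37 and 10.53 in deficient, 10.41, 10.43 and 10.34 in adequate and 10.66, 10.37 and 10.32 in excess pigs. Its 95% interval for deficient minus adequate reached no further than 1.21-fold higher. SOCS2, the feedback inhibitor of growth hormone signalling, differed by 0.12 ± 0.29 with deficient and 0.15 ± 0.29 with excess lysine, the latter 0.37 without excess pig 11. Of 8 regulators of IGF2 transcript 3 were measured. PLAGL1, an imprinted zinc finger factor, was 5.86, 5.62 and 5.67 in deficient and 5.95, 6.28 and 5.84 in adequate pigs. Deficient pig 1 lay above adequate pig 7, and the difference was -0.31 ± 0.13 (limma unadjusted p = 0.0412, adjusted p = 1), or -0.18 without adequate pig 6.

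**Figure D5:**
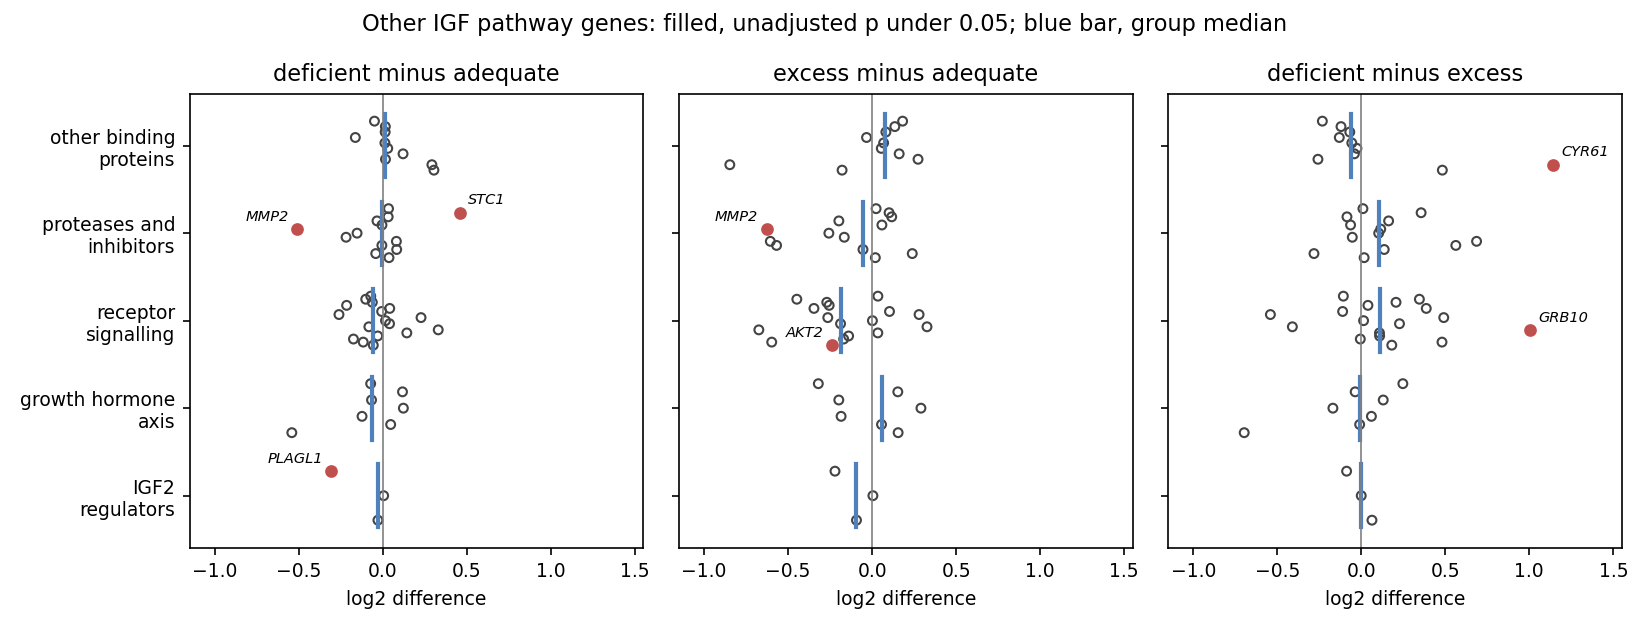
Log2 differences between diets (x axis) of the 50 measured pathway genes outside the family, 1 point per gene, in 5 groups (y axis); filled and named points have an unadjusted limma p under 0.05, and the blue bar is the group median. The named points are 3, 2 and 2 of 50 in the 3 comparisons.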

How the data were processed

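Per the labels' protocols, total RNA from about 50 mg of muscle was extracted with TRIzol, amplified to sense-strand cDNA and hybridised to whole-transcript GeneChip arrays. The values were deposited by the authors on a log scale, read here as log2. Per the submitters' processing notes, GCOS 1.2 and Partek were used, with no role stated. How signals were background-corrected, summarized and normalized was not stated. No value was missing. Repeated symbols on a probe set were counted once, and symbols were updated through Entrez IDs against the Sscrofa11.1 gene table: 13323 probe sets had 1 symbol, 357 several and 13878 none. No genome coordinates or sequences are printed.

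The values were used as deposited. Limma 3.58.1 in R 4.3.3 (lmFit, eBayes) was fitted to all probe sets and 9 arrays with 1 mean per diet, two-sided, with Benjamini-Hochberg adjustment over all probe sets and a threshold of 0.05. The fit was also run on simulated arrays with independent noise of 1 SD per probe set. Those carried neither an array unlike the rest nor correlation between probe sets, so that run does not bear on these features of the data. SE and 95% intervals come from the limma fit to the 9 arrays of the pigs, not from the simulated ones. SD is the spread of 3 pigs, and the number of arrays limits the precision. A gene with several probe sets is shown by the one with the highest mean.

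The family, the pathway lists and the markers were chosen with earlier results of these data known. Pathway genes were named if they were key genes or among the 10 smallest unadjusted p-values under 0.05 of a comparison. The key genes H19 and ZBED6 were not analysed here. Correlations used exact permutations of the 9 arrays. As alternatives, the arrays were quantile normalized once more or centred on their medians, and the fit used an intensity trend with a robust prior, array quality weights or array SD as a covariate. Further alternatives were the dimmest 25 percent of probe sets left out, named probe sets only, gene means over probe sets, the 6 arrays compared alone and each pig left out.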

Additional observations from a re-analysis of the deposited data

How the results depend on the processing

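No IGF family gene passed an adjusted p of 0.05 in limma under any of the 9 other processing settings or with any of 9 pigs left out (smallest adjusted p 0.264). Of the 21 differences 8 kept their direction throughout and 13 reversed at least once. These 8 are the deficient minus adequate values of IGF2R, IGFBP3, IGFBP6 and IGFBP7, the excess minus adequate values of IGFBP3, IGFBP4 and IGFBP6, and deficient minus excess of IGFBP4. IGFBP3 had no value with the dimmest 25 percent of probe sets left out. No paired analysis was run, since the labels state no batch and nothing that pairs pigs of different diets. The cause of each change below was not tested.

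At an unadjusted p under 0.05, deficient against adequate gave 2 family genes with array weights (IGF2R and IGFBP7, where 8.01% of all probe sets passed). It gave 1 with array SD as a covariate (IGF2R, 4.8%), and 0 to 1 with 1 pig left out. Here IGFBP7 passed without excess pig 9, where 2.08% of all probe sets did. Excess against adequate gave 0 to 3 with 1 pig left out, the 3 (IGF2R, IGFBP4 and IGFBP7) without excess pig 9, where 16.8% of all probe sets passed. Deficient against excess gave 1 with the SD covariate (IGF2R, 6.26%) and 0 to 1 with 1 pig left out. In this comparison IGFBP4 passed without excess pig 9, where 14.4% of all probe sets did. Over all probe sets, 1 passed the adjusted threshold for deficient against adequate and 1 for the F test with array weights, and 1 for deficient against excess among probe sets with 1 symbol. Pathway genes at an unadjusted p under 0.05 were 1 for deficient against adequate after median centring and 5 for deficient against excess after quantile normalization. With 1 pig left out they were 1 to 3 (deficient against adequate), 0 to 11 (excess against adequate) and 0 to 11 (deficient against excess). Both highest counts came without excess pig 9, where 16.8% and 14.4% of all probe sets passed. For median centring and quantile normalization this share was not computed.

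Reversed log2 differences were as follows. After quantile normalization, deficient minus adequate was 0.026 for IGFBP4, excess minus adequate was 0.090 for IGF1, 0.023 for IGF1R and -0.054 for STC2, and deficient minus excess was 0.0079 for IGFALS and 0.014 for SOCS2. After median centring, excess minus adequate was -0.033 for STC2 and -0.0010 for GHR. Deficient minus excess was then 0.025 for IGF1, 0.017 for IGF1R, 0.014 for IGFBP3, 0.0094 for IGFALS, 0.041 for GHR and 0.014 for SOCS2. With array weights, excess minus adequate was 0.0036 for IGF1, 0.16 for IGF1R and 0.11 for IGFBP7, and deficient minus excess was -0.22 for IGF2R and -0.044 for IGFBP6. With the SD covariate, deficient minus adequate was 0.030 for IGFBP4, excess minus adequate was 0.18 for IGF1, 0.23 for IGF1R, 0.023 for IGF2R and 0.13 for IGFBP7, and deficient minus excess was -0.24 for IGF2R and -0.092 for IGFBP6.

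With 1 pig left out, deficient minus adequate ran from -0.29 to 0.11 for IGF1, from -0.15 to 0.052 for IGF1R, from -0.030 to 0.037 for IGFBP4, from -0.13 to 0.088 for PAPPA, from -0.0034 to 0.068 for STC2 and from -0.13 to 0.30 for SOCS2. Excess minus adequate ran from -0.26 to 0.13 for IGF1, from -0.22 to 0.13 for IGF1R, from -0.27 to 0.056 for IGFBP7, from -0.034 to 0.059 for STC2, from -0.089 to 0.37 for SOCS2 and from -0.051 to 0.12 for GHR. Deficient minus excess ran from -0.17 to 0.050 for IGF1, from -0.18 to 0.17 for IGF1R, from -0.18 to 0.47 for IGF2R, from -0.060 to 0.0013 for IGFBP3, from -0.036 to 0.37 for IGFBP6 and from -0.31 to 0.019 for IGFBP7. For pathway genes it ran from -0.026 to 0.067 for STC2, from -0.26 to 0.16 for SOCS2, from -0.075 to 0.097 for GHR and from -0.0049 to 0.29 for MMP2.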
